A study of Mus musculus with 9 samples.

Results

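The 8 genes described here mark the spiny projection neurons of the striatum: Drd1, Drd2, Ppp1r1b, Penk, Pdyn, Adora2a, Pde10a and Gpr6. They were taken by symbol from a table of read counts for 56748 genes, in which each symbol matched 1 Ensembl gene, and all 8 were among the 17575 genes tested. The table covers bulk RNA of brain from mice aged 7 months, taken without the cerebellum per the labels, with 3 libraries per genotype and each library labelled as a separate mouse. The genotypes were 5xFAD/Cd5l tg/wt, 5xFAD and wild-type. 5xFAD mice carry human amyloid transgenes under the neuronal Thy1 promoter, and 5xFAD/Cd5l tg/wt mice carry in addition mouse Cd5l driven by the promoter of human PDGF-B, which is active in neurons among other cells. The study set the genotypes against each other to learn what the amyloid transgenes change and what forced expression of CD5L, a secreted scavenger-receptor protein of macrophages, changes on top of them. Cd5l held 2553, 2822 and 3551 counts in 5xFAD/Cd5l tg/wt mice, 0 counts in every 5xFAD library and 1 count in all wild-type libraries together. The sex of the mice is not labelled.

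The striatum is the input station of the basal ganglia, and most of its neurons are GABAergic projection neurons of a pair of classes. Neurons of the direct pathway express the dopamine receptor Drd1 and make dynorphin from Pdyn, while neurons of the indirect pathway express Drd2, the adenosine receptor Adora2a and the orphan receptor Gpr6 and make enkephalin from Penk. Dopamine raises cyclic AMP through Drd1 and lowers it through Drd2, and both classes share Ppp1r1b, a dopamine-regulated inhibitor of a protein phosphatase, and Pde10a, the phosphodiesterase that breaks down cyclic nucleotides in these cells. Several of the 8 genes are also used outside the striatum: Pdyn and Penk by neurons of the hypothalamus, cortex and hippocampus, and Drd2 by dopamine neurons of the midbrain. In bulk tissue of this kind, fewer cells of a type and less RNA per cell cannot be told apart.

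Promoters from RefSeq (build GRCm38.p6, 250 bases before to 50 after the start site) were available for 5 of the 8 genes: Drd1, Drd2, Pdyn, Pde10a and Gpr6. The 4 shown belong to both dopamine receptors and to the genes that, among the rest, moved most closely with them (Gpr6) and least closely (Pdyn), and capitals mark every match, on either strand, to the letters searched.
Drd1, chr13:54055609-54055908, minus strand: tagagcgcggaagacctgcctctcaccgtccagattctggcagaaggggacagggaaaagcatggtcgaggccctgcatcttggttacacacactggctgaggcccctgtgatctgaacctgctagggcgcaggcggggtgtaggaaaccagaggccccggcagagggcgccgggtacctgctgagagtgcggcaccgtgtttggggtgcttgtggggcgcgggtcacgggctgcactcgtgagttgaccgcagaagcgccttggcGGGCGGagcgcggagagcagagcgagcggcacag
Drd2, chr9:49340153-49340452, plus strand: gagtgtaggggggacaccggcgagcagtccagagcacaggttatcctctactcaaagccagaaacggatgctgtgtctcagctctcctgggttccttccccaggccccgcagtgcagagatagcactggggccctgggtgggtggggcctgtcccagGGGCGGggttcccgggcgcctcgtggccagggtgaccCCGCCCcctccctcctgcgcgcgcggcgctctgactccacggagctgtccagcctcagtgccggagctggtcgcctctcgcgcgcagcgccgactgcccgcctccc
Gpr6, chr10:41072241-41072540, minus strand: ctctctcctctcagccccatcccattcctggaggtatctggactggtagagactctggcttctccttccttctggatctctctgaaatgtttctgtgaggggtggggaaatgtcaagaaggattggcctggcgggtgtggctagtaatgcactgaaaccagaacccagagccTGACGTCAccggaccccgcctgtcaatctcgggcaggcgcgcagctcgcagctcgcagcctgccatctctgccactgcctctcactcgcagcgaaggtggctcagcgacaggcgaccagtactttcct
Pdyn, chr2:129699889-129700188, minus strand: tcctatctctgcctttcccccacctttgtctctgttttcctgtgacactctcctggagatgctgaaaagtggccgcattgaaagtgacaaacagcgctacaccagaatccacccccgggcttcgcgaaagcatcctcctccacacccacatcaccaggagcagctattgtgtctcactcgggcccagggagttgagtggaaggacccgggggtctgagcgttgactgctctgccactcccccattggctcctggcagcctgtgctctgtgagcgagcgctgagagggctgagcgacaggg
The letters searched were the cyclic AMP response element TGACGTCA, its core TGACG, the GC box GGGCGG and the TATA box TATAAA. The full element contains the core on both strands. Of 32851 mouse promoters of the same length, 1.79% hold the full element, 20.8% the core, 35.7% a GC box and 13.6% a TATA box. The Gpr6 promoter holds the full element 78 bases before the start site. The Drd2 promoter holds GC boxes 93 and 56 bases before the start site. The Drd1 promoter shown has a GC box 16 bases after its start site, and the other Drd1 promoter available has 1 that lies 133 bases before. Neither of the Pdyn promoters available holds any of these letters.

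Before the genes are compared, the libraries themselves need description, because some stood apart in genes of brain regions. They held 14575416 to 17865150 counts. In 5xFAD/Cd5l tg/wt libraries 2 and 3, the summed level of 9 hypothalamus genes was 156 and 154 counts per 1e6 counts of the scaled library (CPM), against 433 CPM in 5xFAD/Cd5l tg/wt library 1, 332 to 384 CPM in 5xFAD and 308 to 357 CPM in wild-type libraries. The hypothalamic peptide genes Hcrt and Oxt were at 0 counts in those 2 libraries, and Pmch was at 0.135 and 0.169 CPM, against 31.2 CPM in library 1. Wild-type library 3 held 951 CPM of 8 cerebellum genes, against 54.6 to 94.2 CPM in 5xFAD/Cd5l tg/wt mice, 92.8 to 123 CPM in 5xFAD and 92.7 and 155 CPM in wild-type libraries 2 and 1, although the label gives the cerebellum as removed. Genes that all neurons share varied less, with a sum of 9085 to 9666 CPM in 5xFAD/Cd5l tg/wt mice, 8785 to 9169 CPM in 5xFAD and 7991 to 8261 CPM in wild-type libraries. Thy1, whose promoter drives the amyloid transgenes, is among those genes. 5xFAD/Cd5l tg/wt libraries 2 and 3 and wild-type library 3 are called the 3 regionally distinct libraries below. A fit without them rests on 1 5xFAD/Cd5l tg/wt library and assumes that it varies like the other genotypes.

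The labelled tissue held clear striatal expression in every library: the lowest count of any of the 8 genes was 93, for Gpr6. Per kilobase of gene model, Penk (mean over 9 libraries 131 CPM per kb) and Ppp1r1b (114 CPM per kb) were the most abundant of the 8, with Penk above Ppp1r1b in 7 of 9 libraries. Pde10a followed at 20.2 CPM per kb, above the next gene, Drd2 at 14.9 CPM per kb, in 9 of 9 libraries. Adora2a (13.8 CPM per kb), Pdyn (13.8 CPM per kb) and Drd1 (12.8 CPM per kb) lay so close to Drd2 that their ranges over libraries overlapped widely, and Adora2a stood above Pdyn in 4 of 9 libraries. Gpr6 was the lowest at 6.52 CPM per kb, below Drd1 in 9 of 9 libraries.

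Drd1, the dopamine receptor of the direct pathway (chromosome 13, 54205202 to 54209724, minus strand, GRCm39, a protein-coding gene like the other 7), had 32.8, 56.9 and 44.2 CPM in 5xFAD/Cd5l tg/wt libraries 1, 2 and 3, 49.0, 46.3 and 47.3 CPM in 5xFAD and 44.5, 62.4 and 33.3 CPM in wild-type libraries. The 5xFAD libraries lay close together, and the low libraries were 5xFAD/Cd5l tg/wt library 1 and wild-type library 3. The log2 fold change of Drd1 was 0.02 ± 0.21 (SE, n = 3 libraries per genotype, as in all fits) for 5xFAD against wild-type and -0.09 ± 0.21 for 5xFAD/Cd5l tg/wt against 5xFAD.

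Pdyn, the dynorphin precursor (chromosome 2, 129528485 to 129541764, minus strand), had 33.7, 33.3 and 32.2 CPM in 5xFAD/Cd5l tg/wt mice, 51.5, 45.9 and 40.3 CPM in 5xFAD and 45.1, 50.7 and 26.3 CPM in wild-type libraries. It was the only 1 of the 8 genes whose 5xFAD/Cd5l tg/wt libraries all lay below all 5xFAD libraries, which 12.1% of the tested genes also did. Against 5xFAD, its log2 fold change was -0.47 ± 0.18 in 5xFAD/Cd5l tg/wt mice (95% interval -0.87 to -0.08, unadjusted p = 0.0231), and it did not pass after adjustment over all tested genes (edgeR quasi-likelihood test, adjusted p = 0.149). The call depended on the libraries fitted: Pdyn passed without wild-type library 3 (log2 fold change -0.48, adjusted p = 0.012) and when the fit was limited to the 6 libraries of the contrast (-0.48, adjusted p = 0.0191), and not without 5xFAD library 1 (-0.39, adjusted p = 0.395). Over the 21 alternatives its adjusted p was under 0.05 in 4, and its log2 fold change was negative in all 21, at -0.56 to -0.39. Against wild-type, Pdyn differed by -0.30 ± 0.18 (adjusted p = 0.557), and without wild-type library 3 by -0.53 (adjusted p = 0.0306).

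Drd2, the dopamine receptor of the indirect pathway (chromosome 9, 49251927 to 49319477, plus strand), had 21.1, 42.6 and 41.1 CPM in 5xFAD/Cd5l tg/wt mice, 46.5, 41.3 and 34.3 CPM in 5xFAD and 38.6, 46.0 and 28.9 CPM in wild-type libraries. All 3 genotypes overlapped. Penk, the enkephalin precursor (chromosome 4, 4133531 to 4138819, minus strand), had 136, 224 and 178 CPM in 5xFAD/Cd5l tg/wt mice, 240, 228 and 216 CPM in 5xFAD and 229, 285 and 190 CPM in wild-type libraries. The ranges of 5xFAD/Cd5l tg/wt and 5xFAD touched only through 5xFAD/Cd5l tg/wt library 2. The log2 fold change of Penk was -0.35 ± 0.16 against 5xFAD (adjusted p = 0.235) and -0.39 ± 0.16 against wild-type (unadjusted p = 0.0341, adjusted p = 0.355), and without 5xFAD/Cd5l tg/wt library 1 it was -0.19 and -0.23. Penk overlaps a long non-coding RNA on the opposite strand over 499 bases, which averaged 9.33 counts a library, and whether the counting used strand is not given in the sources used here.

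Adora2a, the receptor through which adenosine acts on indirect pathway neurons (chromosome 10, 75152711 to 75170618, plus strand), had 23.0, 63.6 and 42.0 CPM in 5xFAD/Cd5l tg/wt mice, 42.5, 41.5 and 44.5 CPM in 5xFAD and 42.7, 54.9 and 26.6 CPM in wild-type libraries. The highest and the lowest of all 9 libraries were both 5xFAD/Cd5l tg/wt mice, 2.77-fold apart, and the mean difference from 5xFAD was 0.00 ± 0.30 on the log2 scale (95% interval -0.64 to 0.64). Gpr6, a constitutively active receptor that raises cyclic AMP (chromosome 10, 40945973 to 40948281, minus strand), had 6.19, 13.69 and 12.02 CPM in 5xFAD/Cd5l tg/wt mice, 13.04, 11.84 and 11.98 CPM in 5xFAD and 11.9, 17.2 and 7.05 CPM in wild-type libraries. As for Drd1, the 5xFAD libraries lay between the extremes of the other genotypes.

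Of the genes that both classes share, Ppp1r1b (chromosome 11, 98239230 to 98248622, plus strand) had 224, 412 and 328 CPM in 5xFAD/Cd5l tg/wt mice, 363, 339 and 309 CPM in 5xFAD and 371, 409 and 248 CPM in wild-type libraries. An opposite-strand long non-coding RNA covers 7079 bases of its locus and averaged 219 counts, against 3369 to 6729 counts for Ppp1r1b itself. Pde10a (chromosome 17, 8744204 to 9205480, plus strand) had 150, 344 and 248 CPM in 5xFAD/Cd5l tg/wt mice, 295, 268 and 248 CPM in 5xFAD and 245, 326 and 218 CPM in wild-type libraries. For both genes 5xFAD/Cd5l tg/wt library 1 was the lowest of the 9 and 5xFAD/Cd5l tg/wt library 2 the highest.

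**Figure D1:**
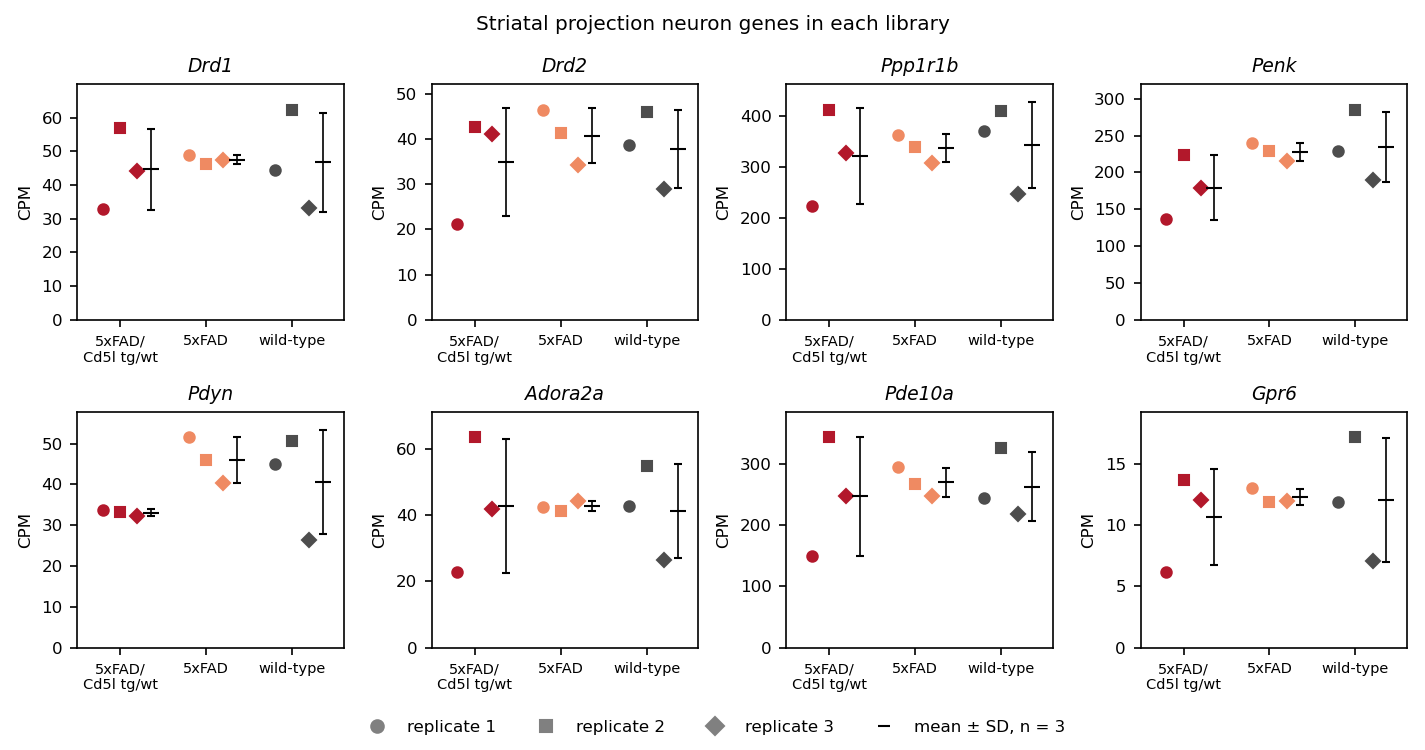
CPM (vertical axes, from 0) of each of the 8 genes in each library, by genotype, with the replicate number as the symbol and the mean ± SD (n = 3) beside each genotype. The genotypes overlap for every gene except Pdyn, whose 5xFAD/Cd5l tg/wt libraries (32.2 to 33.7 CPM) lie below the 5xFAD libraries (40.3 to 51.5 CPM).

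In the amyloid model alone, the striatal genes stayed close to wild-type on average. Of the 8 genes, 0 passed in 5xFAD against wild-type at an adjusted p under 0.05 (edgeR, adjusted over all tested genes), where 3.50% of all tested genes did. Before adjustment 0 of the 8 had a p under 0.05, against 16.3% of tested genes, and DESeq2 called 0 as well. The log2 fold change was negative for 2 of the 8, against 52.2% of tested genes. The log2 fold changes ran from -0.04 (Penk) to 0.17 (Pdyn), with a median of 0.03, against -0.01 for all tested genes. Their SEs were 0.16 to 0.30, so the intervals were wide: for Gpr6 the 95% interval of the fold was 0.652 to 1.59, and for Penk 0.760 to 1.24. The median followed single wild-type mice, at 0.29 with wild-type library 2 left out and -0.17 with wild-type library 3 left out.

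When the Cd5l transgene was added to the amyloid model, 0 of the 8 genes passed against 5xFAD, where 6.23% of all tested genes did, and 1 gene, Pdyn, had an unadjusted p under 0.05, against 22.3% of tested genes. DESeq2 called 0 of the 8, with a lowest adjusted p of 0.0824. The log2 fold change was negative for 7 of the 8 genes, against 49.0% of tested genes, and positive for Adora2a at 0.00. The median was -0.17, against 0.01 for all tested genes, and it was 0.07 without 5xFAD/Cd5l tg/wt library 1 and -0.41 without 5xFAD/Cd5l tg/wt library 2. The median thus changed sign with 1 mouse.

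Against wild-type, 0 of the 8 genes passed in 5xFAD/Cd5l tg/wt mice, where 1.58% of tested genes did, and 1 gene, Penk, had an unadjusted p under 0.05, against 12.4% of tested genes. DESeq2 called 0 of the 8. The median log2 fold change was -0.10, against 0.00 for all tested genes, and 7 of the 8 values were negative, against 49.8% of tested genes. The median became 0.11 without 5xFAD/Cd5l tg/wt library 1 and 0.07 without wild-type library 2. It became -0.28 with wild-type library 3 left out and -0.33 without 5xFAD/Cd5l tg/wt library 2. This comparison shares its 5xFAD/Cd5l tg/wt libraries with the previous one and its wild-type libraries with the first.

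**Figure D2:**
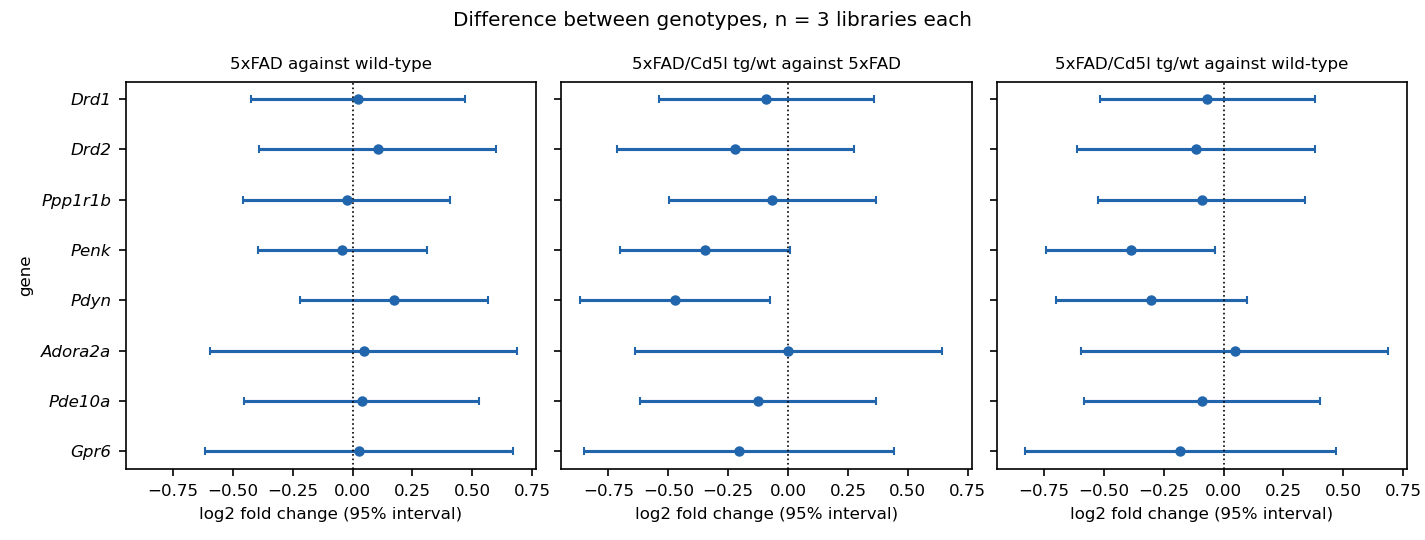
Log2 fold change of each gene (points) with its 95% interval (bars) from the fit of all 9 libraries, in 3 comparisons with n = 3 libraries per genotype. All intervals include 0 except those of Pdyn against 5xFAD (-0.87 to -0.08) and Penk against wild-type (-0.74 to -0.03), neither of which passed after adjustment.

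Within the wild-type group and within the 5xFAD/Cd5l tg/wt group, mice differed from each other more than the genotype means did. Pdyn among 5xFAD/Cd5l tg/wt mice was the exception, with a coefficient of variation of 2.31%. The genes moved together from mouse to mouse. Set against each gene's mean over the 9 libraries, the 8 genes averaged -0.63, 0.26 and -0.03 on the log2 scale in 5xFAD/Cd5l tg/wt libraries 1, 2 and 3, 0.21, 0.10 and 0.02 in 5xFAD, and 0.08, 0.42 and -0.42 in wild-type libraries. All 8 genes lay below their mean in 5xFAD/Cd5l tg/wt library 1 and in wild-type library 3, and all 8 above it in wild-type library 2 and in 5xFAD libraries 1 and 2. 5xFAD/Cd5l tg/wt library 1 was the lowest library for 7 of the 8 genes, and wild-type library 3 for Pdyn. The coefficient of variation was smallest among 5xFAD mice for 7 of the 8 genes, such as 3.6% for Adora2a, against 47.4% among 5xFAD/Cd5l tg/wt and 34.3% among wild-type mice. The share of all tested genes with this order was not computed, and it was not particular to striatal genes. The thalamus sum also spread least in 5xFAD, at 385 to 416 CPM, against 170 to 358 CPM in 5xFAD/Cd5l tg/wt and 323 to 578 CPM in wild-type libraries. The microglia sum did not, at 355 to 441 CPM in 5xFAD against 191 to 225 CPM in wild-type libraries. Counting error for Adora2a was at most 5.38%, at its lowest count of 345, which is small beside the spread in the 5xFAD/Cd5l tg/wt group and in the wild-type group. Among 5xFAD mice it was 3.68% to 3.95%, no smaller than the spread itself.

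**Figure D3:**
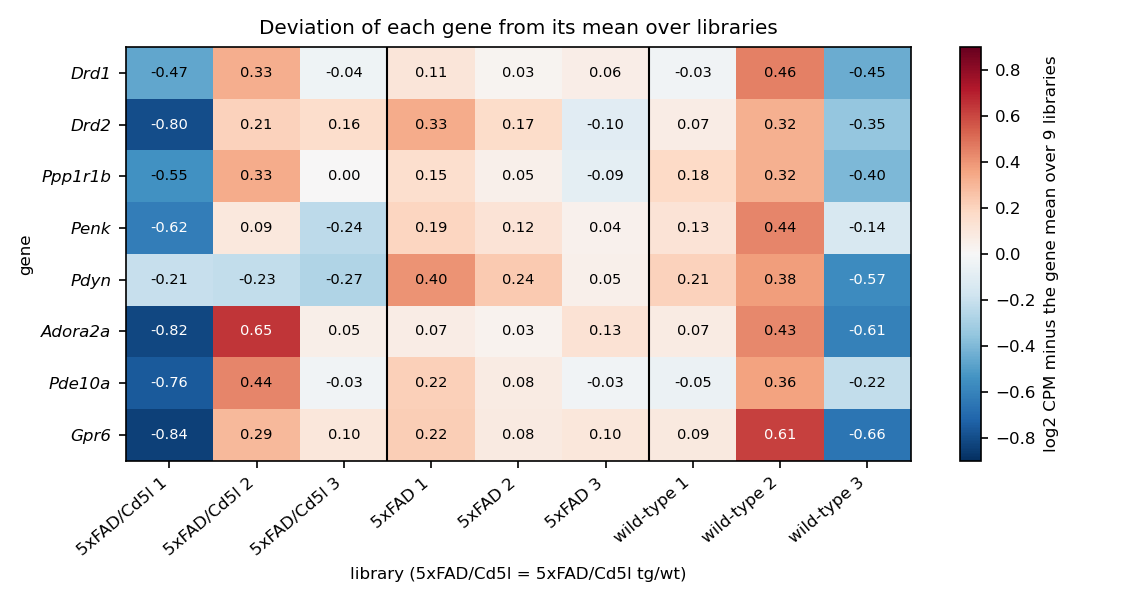
Log2 CPM of each gene (rows) minus its mean over the 9 libraries, by library (columns), with lines between genotypes. 5xFAD/Cd5l tg/wt library 1 and wild-type library 3 are below the mean for all 8 genes, at averages of -0.63 and -0.42.

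Within genotypes, the SD of log2 CPM ran from 0.27 (Penk) to 0.53 (Adora2a), and that of the other 6 genes lay between. Among 10045 genes at least as abundant as the lowest of the 8, with a mean of 11.6 CPM or more, the median SD was 0.12, and the 8 genes stood between the 95.1 percentile (Penk) and the 99.3 percentile (Adora2a and Gpr6). The pan-neuronal sum was also the lowest of its genotype in the libraries low in these genes, with 9085 CPM for 5xFAD/Cd5l tg/wt library 1, against 9622 and 9666 CPM for the other mice of that genotype, and 7991 CPM for wild-type library 3, against 8180 and 8261 CPM. 5xFAD/Cd5l tg/wt library 1, the lowest in the 8 genes, held 1848 CPM of 10 cortex genes, against 2233 and 2017 CPM in the other 5xFAD/Cd5l tg/wt libraries, and 130 CPM of 7 olfactory bulb genes, against 33.2 and 29.7 CPM. Wild-type library 3 held 1602 CPM of the cortex genes, against 1873 and 1842 CPM in wild-type libraries 1 and 2, and 219 CPM of the olfactory bulb genes, against 84.3 and 74.2 CPM. The 5xFAD libraries 1, 2 and 3, where the 8 genes averaged 0.21, 0.10 and 0.02, held 1912, 1859 and 1748 CPM of the cortex genes. Their olfactory bulb sums were 89.8, 104 and 122 CPM. In 5xFAD library 3 the cortex sum was thus below that of 5xFAD/Cd5l tg/wt library 1, without low striatal values. The part of tissue composition in the striatal values was not tested.

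Over the 9 libraries, log2 CPM was positively correlated in all 28 pairs of the 8 genes, with Pearson's r from 0.445 to 0.967 (median 0.871), Spearman's rho from 0.283 to 0.917, and 22 pairs past an adjusted p of 0.05 for r and 18 for rho (exact permutation tests, two-sided, Benjamini-Hochberg over the 28 pairs). The closest pair was Drd1 and Gpr6, which mark different pathways, with r = 0.967 (exact permutation p = 3.58e-05, adjusted p = 0.001) and rho = 0.883. Drd1 and Drd2 gave r = 0.855 and rho = 0.833 (exact permutation, adjusted p = 0.00423 and 0.0251). After the mean of each genotype was removed, the median r was 0.927. With the 2 libraries farthest from the median of the first gene of each pair left out, the median r was 0.651 and the lowest 0.175. Without 5xFAD/Cd5l tg/wt library 1 and wild-type library 3, r was positive for 27 of 28 pairs with a median of 0.674, and 0 of 28 pairs passed over the 7 libraries left (exact permutation). With 1 of them left out, 15 pairs passed (without 5xFAD/Cd5l tg/wt library 1) or 22 (without wild-type library 3). Those 2 libraries are the lowest in these genes and were picked after seeing the data, and leaving them out narrows the range. The fall to 0 passing pairs therefore cannot show how strong the relation is among the other mice.

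Pdyn stood apart from the other 7 genes. Its 7 correlations with them ran from 0.445 to 0.684 and 1 passed (with Penk, r = 0.684, rho = 0.817, exact permutation, adjusted p = 0.0457 for r and 0.0251 for rho), while the 21 pairs without Pdyn ran from 0.780 to 0.967 and all 21 passed for r. Relative to the average deviation of the other 7 genes, Pdyn was at 0.49, -0.56 and -0.27 on the log2 scale in 5xFAD/Cd5l tg/wt libraries 1, 2 and 3, at 0.22, 0.16 and 0.03 in 5xFAD, and at 0.15, -0.04 and -0.16 in wild-type libraries. This range of 1.04 was the widest of the 8, against 0.23 (Ppp1r1b) to 0.65 (Adora2a) for the others. The low values were in the 2 libraries with little hypothalamic RNA, and the high value in 5xFAD/Cd5l tg/wt library 1, which had the highest hypothalamic sum. Pdyn itself was at 33.7, 33.3 and 32.2 CPM in these 3 libraries, so its relative values there differed through the other 7 genes. In wild-type libraries 1, 2 and 3 the hypothalamic sums of 357, 311 and 308 CPM fell in the same order as relative Pdyn. In 5xFAD libraries 1, 2 and 3 they ran the opposite way, at 332, 381 and 384 CPM. The part of hypothalamic RNA in the Pdyn values was not tested.

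**Figure D4:**
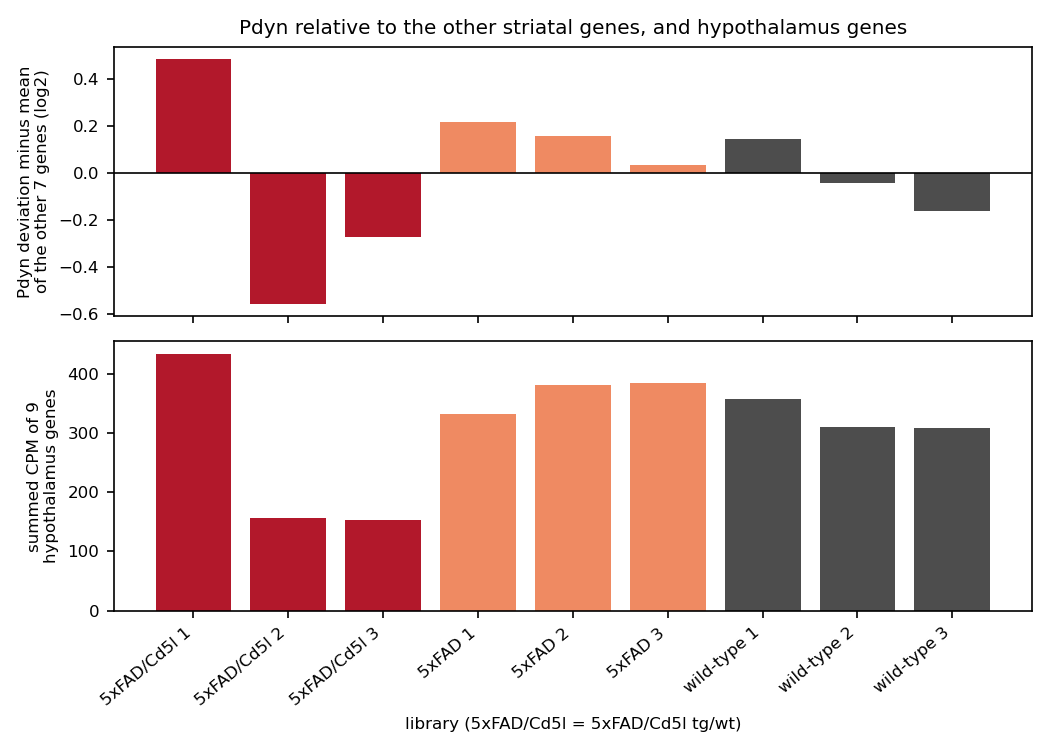
Upper bars: deviation of Pdyn from its mean minus the average deviation of the other 7 genes (log2), by library. Lower bars: summed CPM of 9 hypothalamus genes, which is 156 and 154 CPM in 5xFAD/Cd5l tg/wt libraries 2 and 3, where Pdyn is lowest relative to the others (-0.56 and -0.27). Among the 5xFAD libraries the order of the upper bars is opposite to that of the lower bars.

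Ratios within a library set genes of the pathways against each other, free of depth but not of tissue composition. Drd2, Pdyn and Penk are also used outside the striatum, Drd2 by midbrain dopamine neurons. The sum of 8 genes of those neurons was 221, 69.0 and 96.1 CPM in 5xFAD/Cd5l tg/wt libraries 1, 2 and 3. It was 200.5 to 216.9 CPM in 5xFAD and 156 to 299 CPM in wild-type libraries. Calb2 and Aldh1a1 carried most of this sum, with 124 and 128 CPM in wild-type library 3, and Calb2 is in the thalamus and olfactory bulb lists too. Slc6a3, the dopamine transporter, ran otherwise. It was at 28.6, 0.135 and 0.451 CPM in 5xFAD/Cd5l tg/wt libraries 1, 2 and 3, 17.8, 17.9 and 17.1 CPM in 5xFAD and 3.61, 9.91 and 11.3 CPM in wild-type libraries. The part of midbrain RNA in the ratios was not tested. The ratio of Drd1 to Drd2 counts was 1.32 ± 0.24 in 5xFAD/Cd5l tg/wt, 1.18 ± 0.17 in 5xFAD and 1.22 ± 0.12 in wild-type libraries (SD, n = 3 each), with overlapping ranges. The ratio of Gpr6 to Drd2 counts was 0.303 ± 0.017 in 5xFAD/Cd5l tg/wt, 0.305 ± 0.038 in 5xFAD and 0.308 ± 0.064 in wild-type libraries. These means lie closer together than the spread between mice, although Gpr6 itself differed 2.77-fold between its extreme libraries. The ratio of Pdyn to Drd1 counts was 1.03, 0.585 and 0.728 in 5xFAD/Cd5l tg/wt, 1.05, 0.992 and 0.851 in 5xFAD, and 1.01, 0.812 and 0.788 in wild-type libraries, so that the 2 lowest of 9 values were 5xFAD/Cd5l tg/wt mice. The ratio of Penk to Drd2 counts was 5.35 ± 1.06 in 5xFAD/Cd5l tg/wt, 5.66 ± 0.57 in 5xFAD and 6.24 ± 0.32 in wild-type libraries, again with overlap.

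Other genes of the same neurons were taken from fixed lists. Of 25 further genes in a list of shared projection neuron genes, 0 passed in 5xFAD against wild-type in the edgeR fit. In 5xFAD/Cd5l tg/wt against 5xFAD 1 was lower (0.888% of tested genes) and 0 higher, and against wild-type 0 passed. The medians were -0.03, -0.05 and -0.04. Whether each listed gene is used by both classes alike was not tested. At an unadjusted p under 0.05 the comparisons held 1, 3 and 2 of these genes, against 16.3%, 22.3% and 12.4% of tested genes. DESeq2 called 2 in 5xFAD/Cd5l tg/wt against wild-type, as did edgeR with no filter on low counts. Without 5xFAD/Cd5l tg/wt library 1 and wild-type library 3, 5 of the shared genes passed in 5xFAD/Cd5l tg/wt against 5xFAD, where 3070 of all genes did. In 5xFAD against wild-type 1 passed there, where 1025 of all genes did. Of the fit without the 3 regionally distinct libraries only log2 fold changes are given here, because it rests on 1 5xFAD/Cd5l tg/wt library. The gene that fell was Six3, a transcription factor of striatal and hypothalamic development, at 13.7, 10.7 and 12.4 CPM in 5xFAD/Cd5l tg/wt, against 20.5, 18.5 and 19.6 CPM in 5xFAD (log2 fold change -0.67 ± 0.11, adjusted p = 0.00514, n = 3 each). Wild-type libraries held 16.5 to 17.2 CPM of Six3. With the 3 regionally distinct libraries left out, the log2 fold change of Six3 against 5xFAD was -0.53.

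Of 6 further direct pathway genes, 2 fell in 5xFAD/Cd5l tg/wt against 5xFAD in the edgeR fit, where 0.888% of tested genes fell, and 0 passed in the other comparisons. In 5xFAD/Cd5l tg/wt against wild-type 3 of the 6 had an unadjusted p under 0.05, against 12.4% of tested genes. DESeq2 called 2 there, limma-voom 1 and edgeR with no filter on low counts 2. In 5xFAD against wild-type 0 had such a p, against 16.3% of tested genes, and DESeq2 called 0. Tac1, the precursor of substance P, had 33.4, 36.4 and 36.8 CPM in 5xFAD/Cd5l tg/wt, against 55.5, 50.7 and 48.2 CPM in 5xFAD, and 49.5, 66.1 and 40.1 CPM in wild-type libraries. Its log2 fold change against 5xFAD was -0.53 ± 0.14 (adjusted p = 0.0474), and it missed the threshold when any 1 of these 6 libraries was left out (adjusted p = 0.0694 to 0.19), without wild-type library 1 (0.065), with limma-voom (0.0515) and with upper-quartile scaling (0.0534). Isl1, a transcription factor of direct pathway neurons that hypothalamic and cholinergic neurons also use, had 3.46, 2.16 and 1.47 CPM in 5xFAD/Cd5l tg/wt, against 4.77, 4.49 and 5.35 CPM in 5xFAD (-1.05 ± 0.26, adjusted p = 0.0342). Isl1 missed the threshold when any 1 of the 5xFAD mice was left out (0.0899 to 0.113), in the fit of 6 libraries (0.0572), and with 5xFAD/Cd5l tg/wt library 2 (0.115) or 3 (0.106) dropped. With the 3 regionally distinct libraries left out, the log2 fold change of Isl1 was -0.51. Chrm4, a muscarinic receptor that restrains dopamine signalling in these neurons, went the other way without passing, at 0.39 ± 0.19 (adjusted p = 0.235). Of 5 further indirect pathway genes, 4 were tested, and in every comparison 0 passed with edgeR, 0 with DESeq2 and 0 at an unadjusted p under 0.05.

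The signalling cascade around the receptors showed small differences. Of 25 tested genes of dopamine receptors, G proteins, protein kinase A, phosphatases and phosphodiesterases, 0 passed in each of the 3 comparisons in the edgeR fit, with medians of 0.09 in 5xFAD against wild-type, -0.10 in 5xFAD/Cd5l tg/wt against 5xFAD and -0.03 against wild-type. At an unadjusted p under 0.05 the counts were 1, 3 and 1, against 16.3%, 22.3% and 12.4% of tested genes. In 5xFAD/Cd5l tg/wt against 5xFAD, 1 gene passed with DESeq2, 1 in the fit of 6 libraries, 1 with gene-length offsets and 1 with no filter on low counts, and the alternatives ran from 0 to 5. The smallest p against 5xFAD was that of Ppp1cb, a catalytic subunit of the phosphatase that Ppp1r1b inhibits, at -0.21 ± 0.07 (adjusted p = 0.0831). In the opioid system, 1 of 6 genes fell in 5xFAD/Cd5l tg/wt against 5xFAD in the edgeR fit, where 0.888% of tested genes fell, and 0 passed elsewhere with edgeR or DESeq2. At an unadjusted p under 0.05 there were 0 in 5xFAD against wild-type, 2 in 5xFAD/Cd5l tg/wt against 5xFAD and 1 against wild-type. The shares of tested genes were 16.3%, 22.3% and 12.4%. With 5xFAD/Cd5l tg/wt library 1 left out, 3 genes passed against 5xFAD and 2 against wild-type, where 2069 and 686 of all genes passed. The gene that fell in the fit of all 9 libraries was Pnoc, the precursor of nociceptin, at 8.59, 4.38 and 5.87 CPM in 5xFAD/Cd5l tg/wt, against 11.98, 11.17 and 10.37 CPM in 5xFAD (-0.83 ± 0.20, adjusted p = 0.0324). Pnoc missed the threshold when any 1 of the 5xFAD mice was left out (0.0556 to 0.132) and when 5xFAD/Cd5l tg/wt library 2 (0.0988) or 3 (0.109) was dropped. For Pnoc, leaving out the 3 regionally distinct libraries gave a log2 fold change of -0.40. The summed level of the GABA neuron genes Gad1, Gad2 and Slc32a1 was 911, 689 and 657 CPM in 5xFAD/Cd5l tg/wt mice, 943, 935 and 966 CPM in 5xFAD and 942, 921 and 1095 CPM in wild-type libraries. It was low in the same 2 mice as Pnoc and Isl1, and its part in the values of Pnoc, Isl1 and Tac1 was not tested. In 5xFAD/Cd5l tg/wt against 5xFAD all 3 genes had negative log2 fold changes, against 49.0% of tested genes. Of the 3, 0 passed with edgeR and 2 had an unadjusted p under 0.05, against 22.3% of tested genes. The receptors of dynorphin and enkephalin, Oprk1, Oprm1 and Oprd1, did not pass in any comparison of the edgeR fit.

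In the adenosine system, 1 of 9 genes rose in both amyloid genotypes against wild-type, where the share of tested genes that rose was 1.38% for 5xFAD/Cd5l tg/wt mice and 1.06% for 5xFAD mice, and 0 differed between them past the threshold. Entpd1, an ectoenzyme that removes phosphates from extracellular ATP and that microglia and vessels carry, had 17.0, 22.8 and 23.9 CPM in 5xFAD/Cd5l tg/wt mice, 21.8, 19.0 and 19.2 CPM in 5xFAD and 13.2, 13.0 and 12.3 CPM in wild-type libraries. Its log2 fold change was 0.64 ± 0.13 in 5xFAD (adjusted p = 0.0199) and 0.73 ± 0.13 in 5xFAD/Cd5l tg/wt mice (adjusted p = 0.013), each against wild-type. The first missed the threshold when any 1 of the wild-type mice was left out (0.0541 to 0.0592), or 5xFAD library 1 (0.11) or 2 (0.0601). The second missed it without 5xFAD/Cd5l tg/wt library 2 (0.0562) or 3 (0.0831), without wild-type library 3 (0.0526) and in the fit of 6 libraries (0.0562). With the 3 regionally distinct libraries left out, this log2 fold change against wild-type was 0.37. All 5 microglia genes listed passed as higher in both amyloid genotypes against wild-type, with sums of 408 to 480 CPM in 5xFAD/Cd5l tg/wt, 355 to 441 CPM in 5xFAD and 191 to 225 CPM in wild-type libraries. The sum of 5 endothelium genes was 191 to 225 CPM in 5xFAD/Cd5l tg/wt, 105 to 133 CPM in 5xFAD and 179 to 196 CPM in wild-type libraries. In 5xFAD against wild-type, 3 of these 5 passed as lower, where 2.44% of tested genes did. The part of either cell type in the Entpd1 values was not tested. The relatives of Gpr6, Gpr3 and Gpr12, did not pass in any comparison of the edgeR fit.

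Among 15892 genes with a mean of at least 1 CPM, those whose log2 CPM followed the mean standardized profile of the 8 genes most closely over the 9 libraries were Adcy5 (r = 0.981), Gm44210 (0.972), Pde1b (0.971), Tesc (0.970), Car12 (0.962), Rundc3a (0.960), Gng7 (0.958) and Lrrc10b (0.954). Adcy5, the adenylyl cyclase of the striatum, had 247, 372 and 314 CPM in 5xFAD/Cd5l tg/wt mice, 356, 339 and 324 CPM in 5xFAD and 342, 369 and 253 CPM in wild-type libraries. Its low libraries were the same 2 as for the 8 genes, which follows from its choice by this correlation. 4 of these genes were in the list of shared projection neuron genes, of which 23 of 25 had a positive r with a median of 0.886, against -0.04 for all genes ranked. The median was 0.22 for the 6 direct pathway genes, 0.05 for the 3 indirect pathway genes ranked (-0.31 to 0.83), 0.31 for cortex, 0.45 for hippocampus, -0.23 for hypothalamus and -0.55 for olfactory bulb genes. The points share their libraries, their depth and their tissue pieces, and genes are not independent replicates. In the shared list, Ebf1 (-0.45) and Foxp2 (-0.09) were the genes with a negative r, and Six3 (0.13) and Meis2 (0.38) the next lowest.

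**Figure D5:**
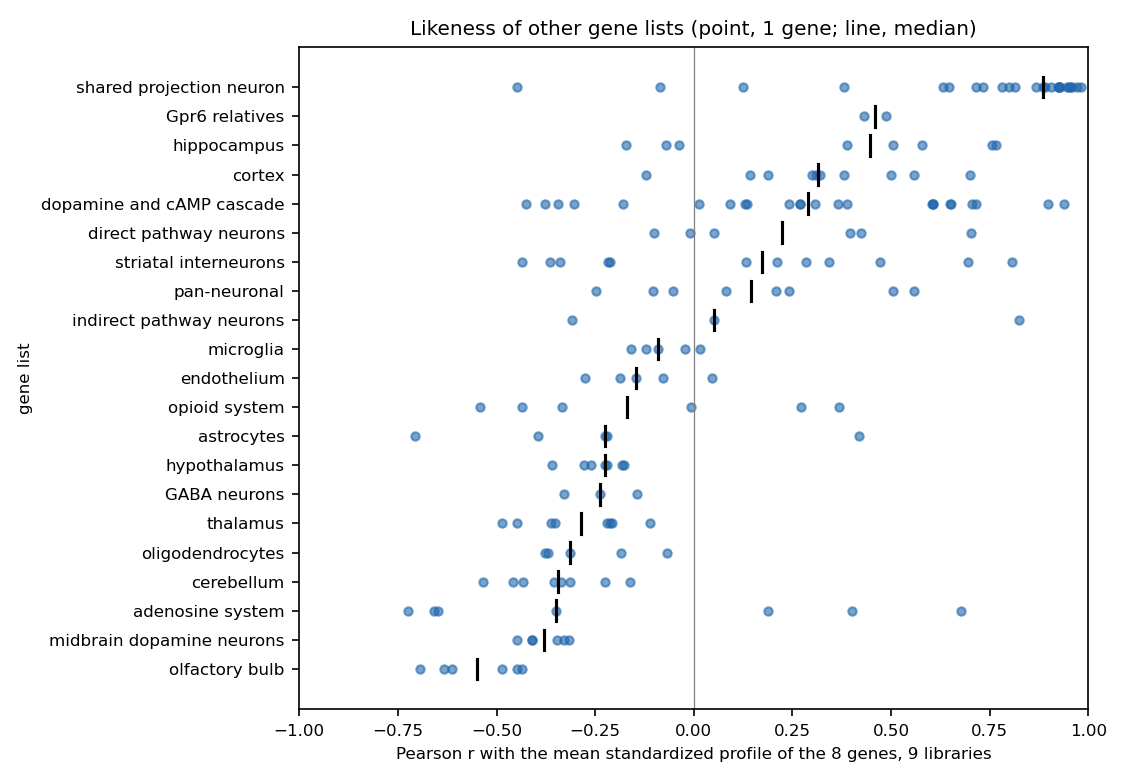
Pearson r over 9 libraries between each gene of a list (points) and the mean standardized log2 CPM of the 8 striatal genes, with list medians (lines) and lists in order of their median. The shared projection neuron genes lie highest, with a median of 0.886, and the olfactory bulb genes lowest, with -0.55.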

How the data were processed

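Raw read counts per gene and library were deposited by the authors in 1 table, with Ensembl identifiers, symbols, coordinates and gene lengths; per the submitters' processing notes the build is GRCm39 (mm39). Not given in the sources used here are the aligner, the counter, the strandedness and what was done with multi-mapped reads. Genotypes were taken from the labels. Nothing beyond the label of a separate mouse describes how replicates were made, so p-values measure the spread between these samples. No pair of libraries shared more than 2.03% identical counts over tested genes.

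Genes were kept by filterByExpr (minimum count 10, minimum total 15), which cost each library 0.161% of its counts or less, and counts were scaled by TMM (factors 0.987 to 1.018). A single edgeR quasi-likelihood fit (version 4.0.16 in R 4.3.3, with limma 3.58.1) held all 9 libraries and a coefficient for each genotype, with Benjamini-Hochberg adjustment over 17575 genes at 0.05. Correlations used log2 CPM and exact permutations (scipy 1.17.1). The fit was tested on simulated counts. Intervals on counts cover counting error only.

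The members, the 22 gene lists (185 genes, all matched by symbol) and the tests were chosen with earlier results of these data known. Named were all 8 members, the list genes that passed or up to 3 with the smallest p, and the 8 genes most like the members. Alternatives were scaling by RLE, upper quartile or total count, other filters, DESeq2 1.42.0, limma-voom, gene-length offsets, a fit of 6 libraries, the replicate number as a block, and leaving libraries out; leaving out 5xFAD/Cd5l tg/wt library 1 with wild-type library 3, and leave-outs in the correlations, were added after seeing the data. Promoters came from RefSeq (GRCm38.p6) and differ in build from the gene coordinates.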

Additional observations from a re-analysis of the deposited data

How the results depend on the processing

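Each comparison was recomputed under 21 alternatives. Shorthand here is "the regional 3" for 5xFAD/Cd5l tg/wt libraries 2 and 3 with wild-type library 3, and "the low pair" for 5xFAD/Cd5l tg/wt library 1 with wild-type library 3. In 5xFAD against wild-type, 0 of the 8 striatal genes passed in all of them. In 5xFAD/Cd5l tg/wt against 5xFAD the count was 2 without a filter on low counts (Pdyn with adjusted p = 2e-04 and Penk with 0.000515), 1 in a fit of the 6 libraries of that contrast (Pdyn), 1 without the low pair (Pdyn, 0.00467), 0 to 1 with each library left out in turn (Pdyn without wild-type library 3), and 6 without the regional 3. In 5xFAD/Cd5l tg/wt against wild-type these counts were 1 without a filter (Penk, 0.000104), 1 without the low pair (Pdyn, 0.0113), 0 to 1 with each library left out (Pdyn without wild-type library 3, 0.0306) and 7 without the regional 3. The fit without the regional 3 keeps only 5xFAD/Cd5l tg/wt library 1, the lowest in striatal genes, and assumes that it varies like the other genotypes. There Adora2a reversed, to -0.91 against 5xFAD (adjusted p = 0.00411) and -1.09 against wild-type (0.00127).

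Over all genes, 615 passed in 5xFAD against wild-type, 1095 in 5xFAD/Cd5l tg/wt against 5xFAD and 277 against wild-type. Without a filter these counts were 1354, 2063 and 1062, and without the low pair they were 1025, 3070 and 673. Without the regional 3, the first was 1154 and the second 630. The third was 452 with DESeq2 and 176 in a fit of 6 libraries. With each library left out in turn, the counts ranged from 206 to 850, from 278 to 2069 and from 158 to 686 in these comparisons. The cause of these shifts was not tested.

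Of the 28 correlations, 22 passed, 15 to 26 with each library left out, and 0 without the low pair (7 libraries). Same-numbered libraries did not pair: their deviations correlated at -0.186 to 0.201, against -0.231 to 0.189 for other pairs. With the replicate block, 0 of 8 striatal genes passed in every comparison (lowest adjusted p = 0.594, 0.106 and 0.257). The lowest count of the 8 genes was 93, and 3 mice per genotype left SEs of 0.16 to 0.30 on the log2 scale. Depth did limit what the spread among 5xFAD mice can show. For Drd1 the counting error there was 3.48% to 3.76%, against a coefficient of variation of 2.92%.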

Other observations

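Some cholinergic genes of the striatal interneuron list were lower in the amyloid genotypes. Of 12 genes tested, 0 were higher in any comparison, 2 were lower in 5xFAD against wild-type, 1 in 5xFAD/Cd5l tg/wt against 5xFAD and 4 in 5xFAD/Cd5l tg/wt against wild-type, where 2.44%, 0.888% and 0.199% of all tested genes were lower. Not all listed genes fell. Lhx8, a transcription factor of cholinergic neurons, averaged 2.28 CPM in 5xFAD/Cd5l tg/wt, 2.83 CPM in 5xFAD and 2.39 CPM in wild-type libraries. Nos1, of another interneuron class, averaged 84.8, 99.5 and 82.9 CPM. Neither passed in any comparison. Slc5a7, the choline transporter of cholinergic terminals, had 6.92, 8.97 and 8.63 CPM in 5xFAD/Cd5l tg/wt mice, 12.2, 13.1 and 13.6 CPM in 5xFAD and 18.9, 17.5 and 23.1 CPM in wild-type libraries. Its log2 fold change was -1.27 ± 0.14 in 5xFAD/Cd5l tg/wt against wild-type (edgeR, adjusted p = 0.000313) and passed under every alternative run. Slc18a3, which loads acetylcholine into vesicles, had 2.13, 1.69 and 2.54 CPM in 5xFAD/Cd5l tg/wt mice, 2.71, 4.60 and 2.74 CPM in 5xFAD and 8.14, 6.20 and 6.09 CPM in wild-type libraries, and fell by 1.68 ± 0.26 in 5xFAD/Cd5l tg/wt against wild-type (adjusted p = 0.00401), which also passed under every alternative run. Between 5xFAD and wild-type, Slc5a7 fell by 0.61 ± 0.14 (adjusted p = 0.0295) and Slc18a3 by 1.01 ± 0.25 (0.0418). Slc5a7 missed the threshold there when any 1 of the 5xFAD mice was left out (0.069 to 0.147), or wild-type library 1 (0.0661) or 3 (0.0976). Slc18a3 missed it there when any 1 of the wild-type mice was left out (0.0578 to 0.155), or 5xFAD library 1 (0.203) or 3 (0.145), or 5xFAD/Cd5l tg/wt library 3 (0.0526), with the replicate block (0.077) and with upper-quartile scaling (0.0533). Between 5xFAD/Cd5l tg/wt and 5xFAD, Slc5a7 fell by 0.66 ± 0.15 (adjusted p = 0.0197), and it missed the threshold when any 1 of the 5xFAD mice was left out (0.0535 to 0.0869), or 5xFAD/Cd5l tg/wt library 3 (0.052). Chat, which makes acetylcholine (-0.96 ± 0.21, adjusted p = 0.0431), and Zic4 (-1.37 ± 0.29, 0.0382) also passed in 5xFAD/Cd5l tg/wt against wild-type. Over the leave-outs in which it failed, the adjusted p was 0.0561 to 0.174 for Chat (without any 1 of the 9 libraries except 5xFAD/Cd5l tg/wt library 2, wild-type library 2 and 5xFAD library 3) and 0.067 to 0.134 for Zic4 (without any 1 except 5xFAD/Cd5l tg/wt library 1 and wild-type library 2). Both genes also missed the threshold in a fit of the 6 libraries of the contrast (0.107 for Chat and 0.128 for Zic4). With 5xFAD/Cd5l tg/wt libraries 2 and 3 and wild-type library 3 left out, the log2 fold change was -1.02 for Chat and -0.68 for Zic4. Chat missed the threshold with the replicate block (0.0771) and with 5xFAD/Cd5l tg/wt library 1 and wild-type library 3 left out (0.0989), and Zic4 with limma-voom (0.0575). Cholinergic neurons of the basal forebrain and brainstem express these genes too, and the hypothalamus and cerebellum sums of the same libraries differ as given above; their part in these values was not tested.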
